A study of Mus musculus with 8 samples.

Results

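Transcript levels of 9 genes that set the entry of cells into the division cycle were compared between oral epithelial cells of germ-free and of specific pathogen-free (SPF) mice. The genes are those of the 3 D cyclins (Ccnd1, Ccnd2, Ccnd3), of their catalytic partners (Cdk4, Cdk6), of the 3 CIP/KIP inhibitors (Cdkn1a, Cdkn1b, Cdkn1c) and of the retinoblastoma protein (Rb1). They were taken by gene name from a deposited table of 22911 genes. All 9 were present, and all 9 passed the filter on low counts. The animals were 4 adult germ-free C57BL/6 mice, which live without microorganisms, and 4 adult SPF mice of the same strain, which have resident microbes but are kept clear of specified pathogens. The series title calls both groups wild type, the source names apply WT to the SPF animals alone, and the labels record no treatment, allele, sex or hour of sampling. Buccal mucosa was split with dispase, epithelial cells were sorted by flow cytometry, and each animal gave 1 library of ribosomal RNA-depleted total RNA. The comparison addresses how the oral epithelium differs between mice without and with resident microbes.

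D-type cyclins are made in response to growth signals and bind the kinases CDK4 and CDK6. The complexes phosphorylate the retinoblastoma protein, which otherwise holds E2F transcription factors inactive, and so release the genes of DNA replication. The CIP/KIP proteins p21, p27 and p57 block cyclin E and cyclin A kinases, and p21 and p27 also take part in assembling cyclin D complexes. In stratified epithelia such as the oral mucosa, division is a property of basal and neighbouring layers, and cells leave the cycle as they move up and differentiate.

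Totals ranged between 10430507 and 15524731 counts in germ-free libraries and between 10260264 and 14730960 counts in SPF libraries. Markers of basal keratinocytes were abundant in every library: 7 genes, Krt5 and Krt14 among them, summed to 27806 to 30340 CPM, a gene's counts relative to the library total after scaling by TMM factors, in germ-free libraries and 29721 to 31688 CPM in SPF libraries. Markers of other cell types were low but not equal between the groups. All 7 endothelial markers had a higher mean in germ-free libraries, where they summed to 10.9 to 98.2 CPM, against 3.27 to 8.69 CPM in SPF libraries, and Emcn was at 0 in 3 SPF libraries, Tek in 2 and Cdh5 in 1. Of 9 fibroblast markers 8 had a higher germ-free mean, and they summed to 69.1 to 591 CPM in germ-free libraries, highest in germ-free 3, against 55.9 to 81.6 CPM in SPF libraries, with Pdgfra at 0 in 2 SPF libraries and Lum in 1. Leukocyte markers summed to 6.31 to 23.2 and 4.72 to 9.14 CPM, skeletal muscle markers to 2.31 to 20.97 and 2.69 to 5.18 CPM, and Schwann cell and melanocyte markers to 2.72 to 13.03 and 5.18 to 9.14 CPM, in germ-free and SPF libraries in that order. Suprabasal keratinocyte markers summed to 14318 to 22955 CPM in germ-free libraries and 16787 to 25230 CPM in SPF libraries. Of these 8 genes 1 had a higher germ-free mean, and 1, Ivl, which encodes the cornified envelope protein involucrin, was called lower (log2 fold change -1.37, edgeR adjusted p = 0.0451). The sum hides a wide spread of Krt1, at 15.6 to 1475 CPM in germ-free and 39.3 to 2459 CPM in SPF libraries. Krt1 was highest in germ-free 3 and SPF 5, as was Krt10, at 1286 and 1787 CPM there.

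The coding sequences of the D cyclins are shown because the results turn on them and because close paralogs can share reads. The first 60 bases of each open reading frame follow, from the GENCODE M21 transcripts (GRCm38), with the codons of the leucine-x-cysteine-x-glutamate motif, through which D cyclins contact the retinoblastoma protein, in capitals.
Ccnd1: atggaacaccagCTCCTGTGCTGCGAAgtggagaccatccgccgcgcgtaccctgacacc
Ccnd2: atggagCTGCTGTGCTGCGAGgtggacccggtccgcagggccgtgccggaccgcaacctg
Ccnd3: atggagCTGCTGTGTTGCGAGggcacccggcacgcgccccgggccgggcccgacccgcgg
The motif occupies bases 13 to 27 of Ccnd1 and bases 7 to 21 of Ccnd2 and Ccnd3, and the frames encode 295, 289 and 292 residues for cyclins D1, D2 and D3. Only the longest exact match was measured, not how similar the whole sequences are. The longest stretch identical between any annotated transcript of Ccnd1 and of Ccnd2 was 20 bases. It was 17 bases for Ccnd1 with Ccnd3 and 15 bases for Ccnd2 with Ccnd3. Between Cdk4 and Cdk6 it was 20 bases, and among the CIP/KIP genes at most 23 bases (Cdkn1a with Cdkn1b).

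RNA of cyclin D2 and cyclin D1 was higher in germ-free than in SPF epithelium, while the other 7 genes did not pass the test. Ccnd2 was 2.76-fold and Ccnd1 2.12-fold higher in the germ-free group. In edgeR's quasi-likelihood test, 2 of the 9 were called at a Benjamini-Hochberg adjusted p under 0.05 over all 15098 tested genes, against 4.18% of all tested genes called and 1.85% called higher in germ-free libraries. Germ-free and SPF libraries were fully separated for 3 of the 9 genes, all higher in germ-free libraries, against 13.1% of all tested genes in either direction and 6.19% in that direction. A p that misses the threshold does not show that the groups are alike, so intervals are given for the other genes. In bulk samples, fewer cells of a type and less RNA per cell cannot be told apart. The plot of CPM by library shows the 2 called genes beside the other 7.

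**Figure D1:**
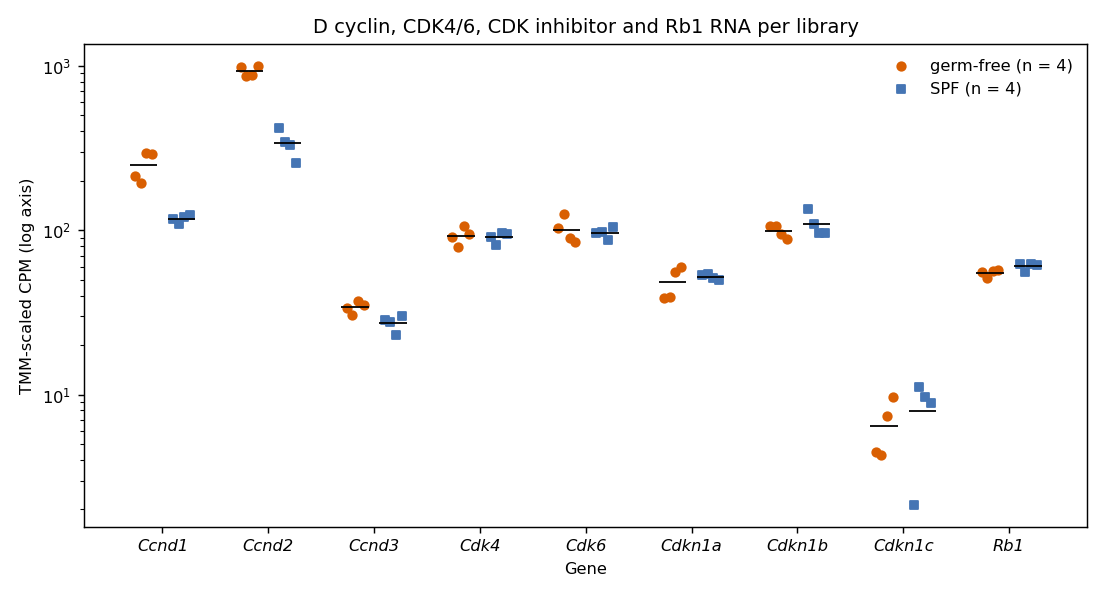
TMM-scaled CPM of the 9 genes (log axis) in each library, with germ-free libraries (orange circles) left of SPF libraries (blue squares) and the group mean as a bar, n = 4 per group. All 4 germ-free values of Ccnd1 and of Ccnd2 lie above all 4 SPF values, and Ccnd3 separates by a narrow gap, from 30.4 CPM in the lowest germ-free library to 30.1 CPM in the highest SPF library.

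Ccnd2 encodes cyclin D2 (ENSMUSG00000000184, GRCm38 chromosome 6, 127125162 to 127152193, minus strand, protein-coding). It stood at 987, 869.9, 874 and 999 CPM in germ-free libraries 1 to 4, against 421, 343, 330.2 and 257 CPM in SPF libraries 1, 3, 4 and 5. Every germ-free library held more than 2 times the CPM of the highest SPF library, and the groups were far apart. The means were 933 ± 70.1 CPM in germ-free and 338 ± 67.3 CPM in SPF libraries (SD, n = 4 each). Fitted over all genes, the log2 fold change was 1.47 ± 0.13 (standard error; 95% confidence interval 1.19 to 1.74; edgeR adjusted p = 8.09e-05), the fifth smallest p of all tested genes (rank 5 of 15098). Ccnd2 was also the most abundant of the 9 genes per exon length in either group, at 99.1 ± 7.45 CPM per kb in germ-free and 35.9 ± 7.15 CPM per kb in SPF libraries.

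Ccnd1 encodes cyclin D1 (ENSMUSG00000070348, chromosome 7, 144929931 to 144939925, minus strand), the D cyclin most often studied in epithelial growth. It stood at 213, 193, 293 and 292 CPM in germ-free libraries 1 to 4, against 117, 109, 119.5 and 123 CPM in SPF libraries 1, 3, 4 and 5. SPF libraries lay close together, while germ-free 3 and 4 lay above germ-free 1 and 2. The means were 248 ± 52.5 CPM in germ-free and 117 ± 5.95 CPM in SPF libraries (SD, n = 4 each), a log2 fold change of 1.08 ± 0.13 (95% confidence interval 0.80 to 1.36; edgeR adjusted p = 0.00106; rank 28 of 15098). The exons of Ccnd1 overlap those of LTO1 on the opposite strand by 1100 bases. LTO1 had 203 to 298 counts in germ-free and 207 to 289 counts in SPF libraries, against 2908 to 4601 and 1154 to 1693 counts of Ccnd1. For Ccnd2, the opposite-strand genes 9330179D12Rik and Gm43126 had at most 12 counts in any library.

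Ccnd3, which encodes cyclin D3 (chromosome 17, 47505051 to 47599691, plus strand), did not pass the test. It stood at 33.7, 30.4, 37.4 and 35.2 CPM in germ-free libraries, against 28.5, 27.7, 23.1 and 30.1 CPM in SPF libraries. The groups did not overlap, but the gap between them was small beside the spread within each. Its log2 fold change was 0.32 ± 0.12 (95% confidence interval 0.06 to 0.59; edgeR unadjusted p = 0.0205, adjusted p = 0.164), so the interval reaches up to 1.502-fold. Its exons overlap those of Bysl on the opposite strand by 361 bases, and Bysl had 435 to 578 counts in germ-free and 318 to 653 counts in SPF libraries, of the order of the 380 to 586 and 281 to 405 counts of Ccnd3.

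The D cyclins together amounted to 156 ± 14.7 CPM per kb of exon in germ-free and 63.9 ± 6.65 CPM per kb in SPF libraries. Cyclin D2 made up 68.1%, 67.6%, 58.3% and 61.7% of that sum in germ-free libraries 1 to 4, against 61.4%, 58.1%, 55.6% and 48.0% in SPF libraries 1, 3, 4 and 5. These shares overlapped between the groups. The share of cyclin D3 was 2.33% to 2.67% in germ-free and 4.17% to 6.03% in SPF libraries, without overlap, and cyclin D1 made up the rest. The lower share of cyclin D3 is set by the larger Ccnd1 and Ccnd2 values in the sum and is no separate result. Ccnd3 itself averaged 3.89 CPM per kb in germ-free and 3.12 CPM per kb in SPF libraries. Lengths are those of all annotated exons of a gene, so a change of isoform would alter the shares.

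**Figure D2:**
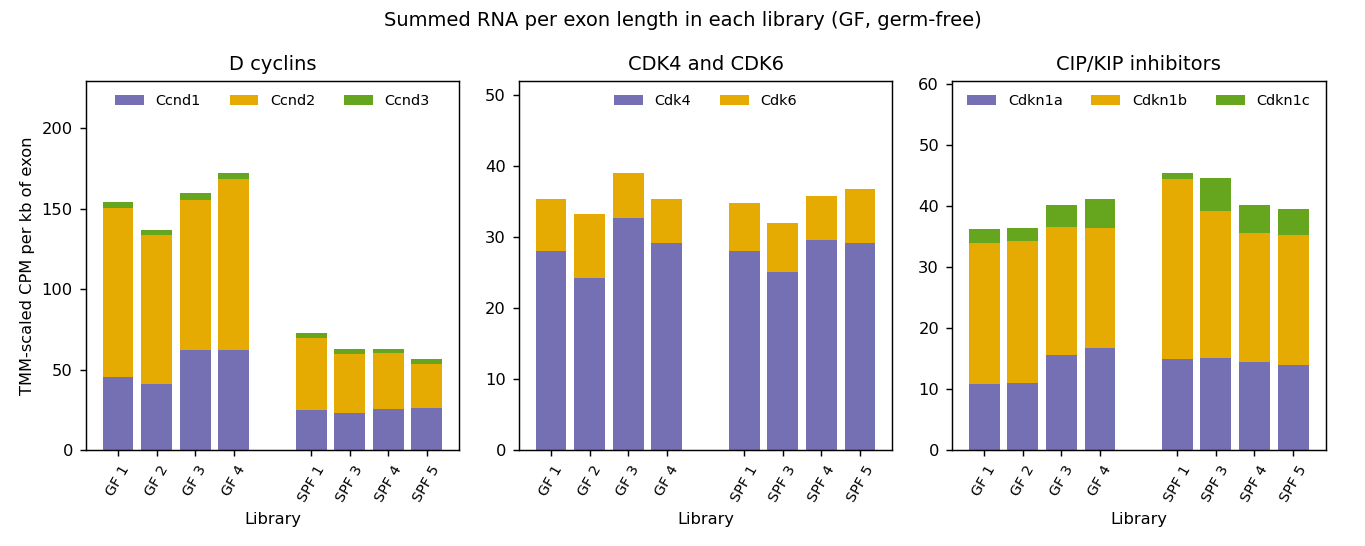
Stacked TMM-scaled CPM per kb of exon in each library for the D cyclins, for CDK4 and CDK6 and for the CIP/KIP inhibitors, germ-free (GF) libraries on the left and SPF libraries on the right of each panel. The D cyclin stacks reach 137 to 172 CPM per kb in germ-free and 56.8 to 72.9 CPM per kb in SPF libraries, while the stacks of kinases and inhibitors overlap between the groups.

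Of the markers of other cell types, 2 endothelial genes were called higher in germ-free libraries, where Ccnd1 and Ccnd2 were also higher. Of 7 fibroblast markers tested 0 were called higher and 1, Thy1, was called lower, though 8 of the 9 had a higher germ-free mean. Col1a1 was at 5.58 to 81.8 CPM in germ-free and 0.203 to 4.27 CPM in SPF libraries. Its log2 fold change was 4.24 (edgeR adjusted p = 0.168). No leukocyte, muscle, Schwann cell or melanocyte marker was called, but many were too low to be tested. Those tested were 3 of 7 leukocyte, 1 of 5 muscle and 3 of 6 Schwann cell or melanocyte markers. The part of these cells in the cyclin results was not tested. Germ-free 3, the library with the highest endothelial and fibroblast sums, had 874 CPM of Ccnd2, below germ-free 1 and 4, and 293 CPM of Ccnd1, the highest of all 8 libraries. Without germ-free 3 the log2 fold change was 1.50 for Ccnd2 (edgeR adjusted p = 0.000397) and 0.99 for Ccnd1 (edgeR adjusted p = 0.00167).

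RNA of the catalytic partners did not pass the test. Cdk4 (chromosome 10, 127063534 to 127067920, plus strand) was at 90.9, 78.7, 106 and 94.9 CPM in germ-free libraries, against 90.9, 81.3, 96.0 and 94.9 CPM in SPF libraries. The ranges overlapped, with germ-free values on both sides of the SPF range. The log2 fold change was 0.03 ± 0.10, and its 95% confidence interval ran from -0.19 to 0.25, that is from 0.878-fold to 1.19-fold. Its exons share 641 bases with Tspan31 on the opposite strand, which had 349 to 575 counts in germ-free and 441 to 626 counts in SPF libraries.

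Cdk6 (chromosome 5, 3341485 to 3531008, plus strand) was at 103, 126, 89.6 and 85.2 CPM in germ-free libraries, against 95.7, 97.8, 87.6 and 105 CPM in SPF libraries. Germ-free 2 was the highest and germ-free 4 the lowest of all 8 libraries. For Cdk6 the log2 fold change was 0.07 ± 0.12 (95% confidence interval -0.18 to 0.31). Per exon length Cdk4 was the more abundant kinase gene, at 28.5 ± 3.48 CPM per kb in germ-free and 27.9 ± 2.05 CPM per kb in SPF libraries, against 7.20 ± 1.30 and 6.89 ± 0.50 CPM per kb for Cdk6. The ratio of Ccnd1 to Cdk4 per exon length was 1.62 to 2.12 in germ-free and 0.859 to 0.925 in SPF libraries, and that of Ccnd2 to Cdk4 was 2.85 to 3.82 in germ-free and 0.934 to 1.60 in SPF libraries. Cyclin RNA exceeded Cdk4 RNA per exon length in every germ-free library for both cyclins, and in SPF libraries for Ccnd2 in all but SPF 5.

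The promoter windows of the kinase genes are shown because they hold the E-box letters CACGTG, a motif bound by MYC and by the CLOCK and BMAL1 pair. Windows of 300 bases, 250 before to 50 after an annotated start, were matched for 5 of the 9 genes in the RefSeq table (GRCm38.p6), 7 windows in all. Ccnd1, Ccnd2, Cdkn1c and Rb1 were not matched. The sequences below are 5′ to 3′ on the plus strand, the strand of both genes, with CACGTG in capitals. The Cdk4 window is chr10:127063285-127063584 and the Cdk6 window chr5:3343643-3343942.
Cdk4: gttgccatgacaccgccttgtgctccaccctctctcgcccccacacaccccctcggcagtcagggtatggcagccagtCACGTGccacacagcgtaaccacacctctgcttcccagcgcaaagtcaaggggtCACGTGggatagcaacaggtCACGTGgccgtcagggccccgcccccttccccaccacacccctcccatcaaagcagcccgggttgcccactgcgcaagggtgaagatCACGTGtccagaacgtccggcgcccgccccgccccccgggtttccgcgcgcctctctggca
Cdk6: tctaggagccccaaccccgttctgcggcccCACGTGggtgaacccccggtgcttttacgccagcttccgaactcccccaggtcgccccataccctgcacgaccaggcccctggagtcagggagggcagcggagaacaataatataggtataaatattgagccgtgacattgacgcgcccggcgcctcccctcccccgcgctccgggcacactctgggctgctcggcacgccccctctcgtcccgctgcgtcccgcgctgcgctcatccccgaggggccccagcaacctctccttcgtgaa
CACGTG, which reads the same on both strands, occurred 4 times in the Cdk4 window and 1 time in the Cdk6 window. It was found in 7.15% of all 32851 windows, and 8 of those windows held 4 or more. The E2F motifs TTTCCCGC and TTTGGCGC, searched on both strands, were in none of the 7 windows, and in 1.07% and 0.514% of all windows. The GC box GGGCGG was found on either strand in 5 of the 7 windows and in 35.7% of all windows, and no match of it overlapped a CACGTG. A match describes letters only.

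None of the CIP/KIP inhibitors passed the test. Cdkn1a, which encodes p21, a target of p53 (chromosome 17, 29090976 to 29100727, plus strand), was at 38.6, 39.4, 55.5 and 59.9 CPM in germ-free libraries, against 53.1, 53.9, 51.4 and 49.8 CPM in SPF libraries. Germ-free 1 and 2 lay below all SPF libraries, and germ-free 3 and 4 above all of them. The SD was accordingly 10.9 CPM around a mean of 48.4 CPM in germ-free and 1.82 CPM around 52.0 CPM in SPF libraries. Germ-free over SPF, its log2 fold change was -0.11 ± 0.14 (95% confidence interval -0.41 to 0.20). It was -0.03 without germ-free 1, -0.02 without germ-free 2, -0.18 without germ-free 3 and -0.22 without germ-free 4.

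Cdkn1b, which encodes p27 (chromosome 6, 134920401 to 134925513, plus strand), was at 105, 106, 95.4 and 89.0 CPM in germ-free libraries, against 134, 109.8, 96.1 and 96.5 CPM in SPF libraries. The ranges overlapped, and SPF 1 was the highest of all. The log2 fold change was -0.14 ± 0.11 (95% confidence interval -0.38 to 0.10), and without SPF 1 it was -0.04. It was the most abundant CIP/KIP gene per exon length, at 21.7 ± 1.81 CPM per kb in germ-free and 23.98 ± 3.93 CPM per kb in SPF libraries.

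Cdkn1c, an imprinted gene that encodes p57 (chromosome 7, 143458339 to 143461050, minus strand), was the least abundant of the 9 in counts. It was at 4.48, 4.28, 7.39 and 9.63 CPM in germ-free libraries, against 2.13, 11.1, 9.60 and 8.86 CPM in SPF libraries. SPF 1 was the lowest of all 8, on 21 counts, and the other libraries had 61 to 162. The log2 fold change of -0.31 ± 0.44 had a 95% confidence interval of -1.27 to 0.65, which runs from 0.414-fold to 1.57-fold. Without SPF 1 the log2 fold change was -0.63 ± 0.30 (edgeR adjusted p = 0.289).

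Rb1 (chromosome 14, 73183673 to 73325822, minus strand) did not pass the test. It was at 55.3, 51.1, 56.7 and 57.2 CPM in germ-free libraries, against 62.3, 56.1, 62.6 and 61.7 CPM in SPF libraries. The ranges overlapped through SPF 3, which lay apart from the other SPF libraries. The log2 fold change was -0.14 ± 0.09 (95% confidence interval -0.34 to 0.06). Its exons share 488 bases with Rcbtb2 and 408 bases with Lpar6, both on the opposite strand.

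**Figure D3:**
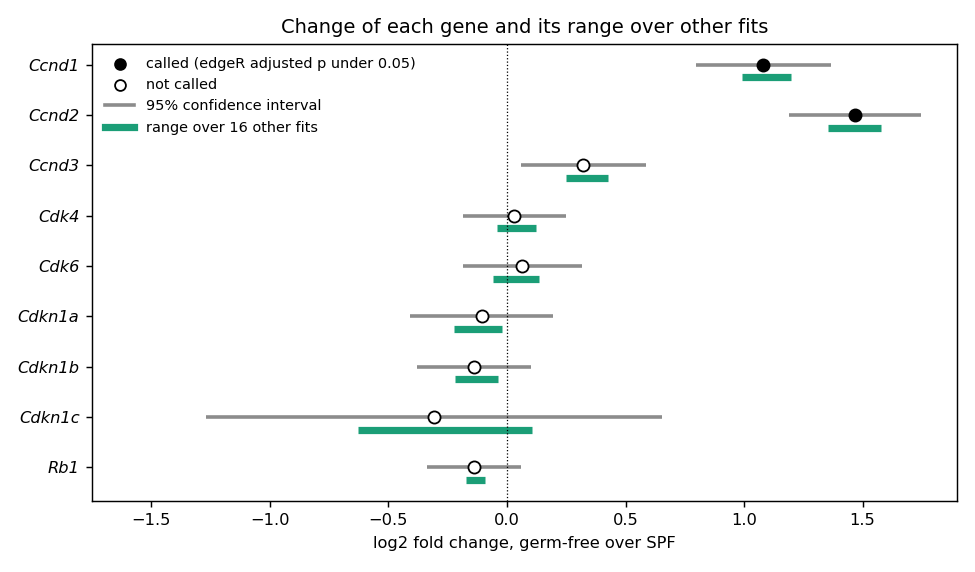
Log2 fold change of each of the 9 genes, germ-free over SPF, with its 95% confidence interval (grey) and the range of the estimate over 16 other fits (green). Ccnd1 and Ccnd2 (filled) lie between 0.99 and 1.58 in all fits, and the intervals of the 6 genes from Cdk4 to Rb1 include 0.

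In the authors' deposited table, which gives SPF over germ-free, the log2 fold changes were -1.46 for Ccnd2 (adjusted p = 8.38e-24) and -1.07 for Ccnd1 (adjusted p = 1.23e-11), and the other 7 genes had adjusted p-values of 0.189 to 0.964. The sign is the reverse of the one used here because the ratio is inverted.

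Among 20 other partners and brakes of the G1/S switch, 19 were tested, and 2 fell and 0 rose in germ-free libraries. Of all tested genes 2.33% were called lower and 1.85% higher. The list's median log2 fold change was 0.02, as was that of all tested genes. At an unadjusted p under 0.05 edgeR had 2 higher and 4 lower, against 19.5% of all tested genes in either direction, and DESeq2 and limma voom each called 0 higher and 3 lower. Cdkn2d, which encodes the CDK4 and CDK6 inhibitor p19INK4d, was at 10.6, 8.09, 5.35 and 6.76 CPM in germ-free libraries, against 15.2, 14.96, 16.3 and 11.1 CPM in SPF libraries (log2 fold change -0.90 ± 0.23, edgeR adjusted p = 0.0442). Cks1b, a small CDK-binding subunit needed for p27 degradation, was at 7.56, 7.63, 8.09 and 7.31 CPM in germ-free libraries, against 10.8, 12.8, 18.3 and 14.6 CPM in SPF libraries (-0.88 ± 0.20, edgeR adjusted p = 0.0270). Its paralog Cks2 was at 21.6 ± 6.20 and 33.9 ± 5.12 CPM in germ-free and SPF libraries and did not pass (edgeR adjusted p = 0.0698). Both calls rest on several libraries. With 1 library left out, the list had 1 fall without SPF 1. It had 0 falls without germ-free 3, germ-free 4, SPF 3, SPF 4 or SPF 5. Without germ-free 2 it had 2, but Cdkn2d lost its call (edgeR adjusted p = 0.0693) and Cks2 gained one (edgeR adjusted p = 0.0126). Over 16 other fits Cdkn2d was called in 8 and Cks1b in 10. Cdkn2a was not analysed here.

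Genes under E2F control at G1/S divided between the directions. Of 12 tested, 2 rose and 2 fell, with a median log2 fold change of -0.14. Of all tested genes 1.85% were called higher and 2.33% lower. At an unadjusted p under 0.05 edgeR had 3 higher and 5 lower, against 19.5% of all tested genes in either direction. Ung, a uracil-DNA glycosylase, was at 7.999, 8.22, 10.3 and 7.68 CPM in germ-free libraries, against 2.03, 1.37, 4.42 and 4.21 CPM in SPF libraries (log2 fold change 1.50 ± 0.36, edgeR adjusted p = 0.0318). Cdt1, which licenses replication origins, averaged 26.7 ± 3.60 CPM in germ-free and 14.9 ± 4.55 CPM in SPF libraries (0.84 ± 0.20, edgeR adjusted p = 0.0333). Ccna2, which encodes cyclin A2, averaged 48.1 ± 15.6 CPM in germ-free and 102.6 ± 13.9 CPM in SPF libraries (-1.09 ± 0.21, edgeR adjusted p = 0.0252). Cdk1, the mitotic kinase, averaged 25.8 ± 8.29 CPM in germ-free and 52.1 ± 9.16 CPM in SPF libraries (-1.01 ± 0.22, edgeR adjusted p = 0.0330). The number that rose was 0 without germ-free 3, germ-free 4 or SPF 3 and 1 without germ-free 1, germ-free 2, SPF 1 or SPF 4. Without germ-free 1 the rise was in another gene of the list. Both Ung (edgeR adjusted p = 0.05002) and Cdt1 (edgeR adjusted p = 0.0504) lost their calls there. The number that fell was 0 without SPF 3, SPF 4 or SPF 5, 1 without germ-free 2 or germ-free 3 and 4 without SPF 1. DESeq2 and limma voom each called 3 higher and 5 lower.

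Of 13 mitotic and proliferation genes tested, 9 fell and 0 rose by edgeR, against 2.33% of all tested genes called lower and 1.85% higher. At an unadjusted p under 0.05 edgeR had 0 higher and 13 lower, against 19.5% of all tested genes in either direction. DESeq2 and limma voom each called 13 lower and 0 higher. By edgeR Ccnb1, Plk1, Cenpe and Cenpf did not pass, with adjusted p-values of 0.0564 to 0.158. With the replicate block by title number 2 of the 13 fell. Their median log2 fold change was -1.13, and the genes had been seen to fall in earlier results of these data. Kif11, a spindle motor, was at 74.1, 72.2, 49.1 and 50.4 CPM in germ-free libraries, against 125, 171, 152 and 129.6 CPM in SPF libraries. Germ-free 3 and 4, the libraries with the most Ccnd1, had the least Kif11. Bub1b, a spindle checkpoint kinase, ran between 38.4 and 67.3 CPM in germ-free and between 117 and 146 CPM in SPF libraries, and Aurkb, the Aurora B kinase, averaged 13.2 ± 5.69 and 34.7 ± 3.15 CPM (SD, n = 4 each). The other 6 that fell were Bub1, Ccnb2, Mki67, Aurka, Cdc20 and Top2a, by 0.92 to 1.15 on the log2 scale. The number that fell was 3 without SPF 3 or SPF 4 and 6 to 13 without any other library.

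No target gene of p53 passed the test, with 17 tested and a median log2 fold change of 0.08. By edgeR 0 rose and 0 fell, with 0 at an unadjusted p under 0.05, against 4.18% of all tested genes called and 19.5% at that unadjusted p. DESeq2 and limma voom each called 0, with 3 each at that p. A list of this length with no call is near the background of called genes. At the unadjusted p, edgeR's 0 of 17 lies below the share of all tested genes. The smallest p-values were those of Eda2r, a death receptor of the TNF family (8.57 ± 2.63 CPM in germ-free and 5.90 ± 0.50 CPM in SPF libraries), of Mdm2, the ubiquitin ligase that limits p53 (53.3 ± 15.5 and 40.7 ± 4.35 CPM), and of Trp53inp1 (39.1 ± 3.47 and 46.1 ± 5.12 CPM). Of 14 transcription factors known to act on the CDK inhibitors, 0 rose and 0 fell by edgeR, DESeq2 or limma voom, with 4 of 14 at an unadjusted p under 0.05 in each, against 19.5% of all tested genes by edgeR, and a median log2 fold change of 0.07. The smallest p-values were those of Zbtb17 (Miz-1), at 55.6 ± 3.82 CPM in germ-free and 66.8 ± 4.74 CPM in SPF libraries, of Foxo3 (105.9 ± 18.1 and 84.7 ± 9.93 CPM) and of Sp1 (206 ± 9.30 and 236 ± 11.6 CPM).

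**Figure D4:**
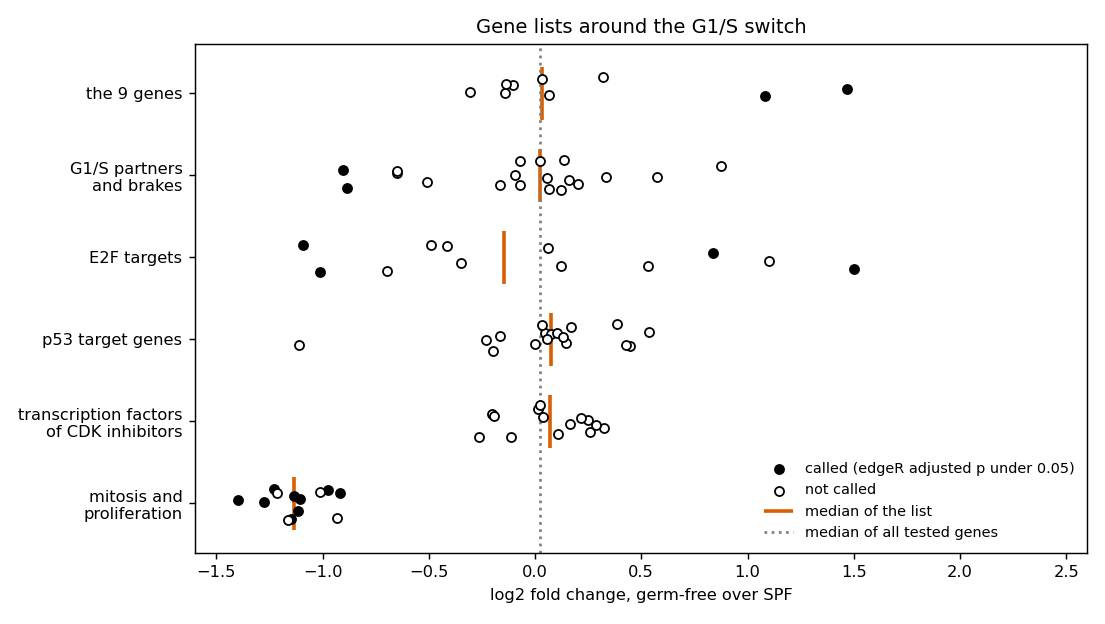
Log2 fold change, germ-free over SPF, of each tested gene in the 9-gene set and in 5 lists around the G1/S switch, with called genes filled, the median of each list in orange and the median of all tested genes dotted. Ccnd2 and Ccnd1 stand at 1.47 and 1.08, E2F targets are called in both directions, and all 13 mitotic genes lie below 0 with 9 called.

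The genes nearest to each called cyclin were found by the root-mean-square difference of log2 CPM, centred on each gene's own mean, over the 8 libraries. For Ccnd1 they were Cipc, which encodes a CLOCK-interacting repressor (difference 0.116), Ankrd12, an ankyrin repeat protein (0.151), and Nr1d2, which encodes the clock repressor REV-ERBβ (0.181). Cipc was at 27.4, 23.4, 38.8 and 37.6 CPM in germ-free libraries, against 18.1, 14.7, 15.5 and 14.1 CPM in SPF libraries. It was high in germ-free 3 and 4, as Ccnd1 was. For Ccnd2 the nearest were Bmp3, a ligand of the BMP family (0.259), Slc6a6, the taurine transporter gene (0.281), and Rnf167, a ubiquitin ligase (0.284). Bmp3 averaged 36.3 ± 7.17 CPM in germ-free and 12.0 ± 2.54 CPM in SPF libraries. The difference between Ccnd1 and Ccnd2 themselves was 0.352. The neighbours were picked as the smallest differences in the whole tested table, so their lying closer says nothing about how alike the cyclins are. All 6 neighbours were called higher in germ-free libraries, which nearness to a called gene favours. The labels give no hour of sampling, so hour and group cannot be told apart.

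**Figure D5:**
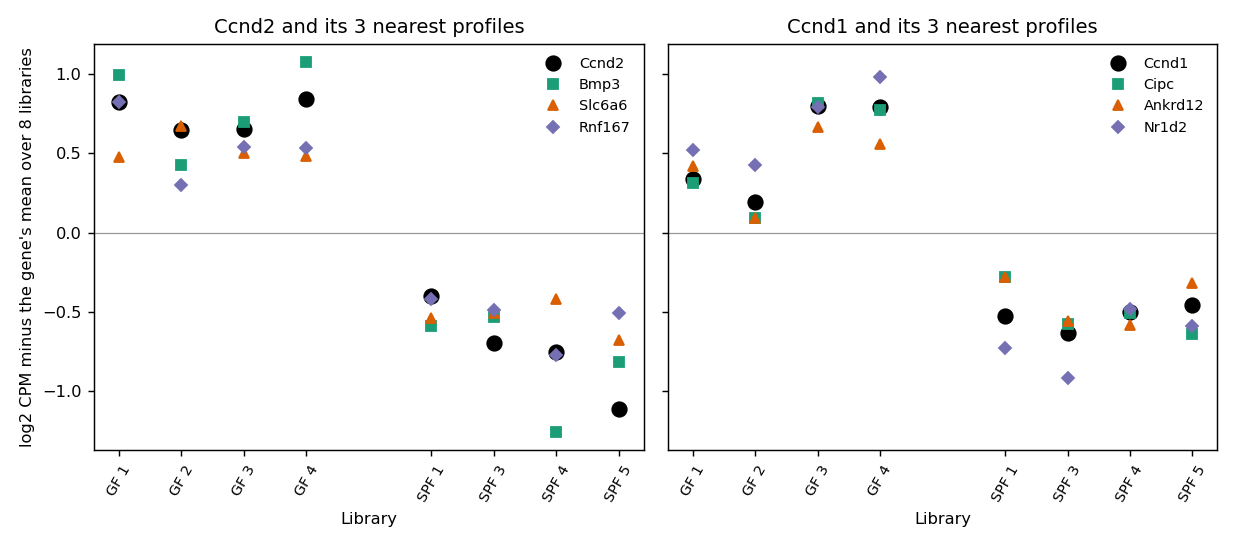
Log2 CPM minus the gene's own mean over the 8 libraries for Ccnd2 (left) and Ccnd1 (right) with their 3 nearest profiles, germ-free (GF) libraries left of SPF libraries in each panel. Ccnd1, Cipc and Ankrd12 are higher in germ-free 3 and 4 than in germ-free 1 and 2, while Ccnd2 is lowest in SPF 5.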

How the data were processed

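RNA-seq gene counts of 8 libraries, 4 germ-free and 4 SPF, were used. The deposited counts were raw whole numbers per gene, per the file headers. The submitters' processing notes name the build GRCm38 and the tools DESeq2 1.22.2, HTSeq 0.6.0, TopHat2 2.1.1, cutadapt 1.18 and bcl2fastq 2.18.0.12, without their roles. The table also held, per the file headers, the authors' normalized signal (counts divided by size factors), their log2 fold changes of SPF over germ-free, their Wald score and their p-values. The library kit is stranded per the labels, but the sources used here do not give how strand was treated in counting, so genes that overlap are uncertain.

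Fold changes are germ-free over SPF. filterByExpr selected genes (minimum count 10, minimum total 15), which left 15098; these were scaled by TMM and tested with edgeR's glmQLFit (robust) and quasi-likelihood F test, two-sided, with group as the only term, called at an adjusted p under 0.05. Standard errors came from the F statistic and intervals from its degrees of freedom. For profiles 1 count was added before log2. Exon lengths were unions of GENCODE M21 exons; all 9 genes had the coordinates of that annotation. The design text gives 4 animals in each group, 1 library each. No pair of libraries agreed within sampling noise. The fits were tested on simulated counts and repeated with other scalings, tests, filters, replicate blocks and each library left out, with DESeq2 1.42.0, limma 3.58.1 and edgeR 4.0.16 in R 4.3.3.

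The 9 genes, the 12 lists and the tests were chosen with earlier results of these data known. Named genes were the 9, the called members and the 3 smallest p-values of each of the 5 pathway lists, and the 3 nearest profiles of each called gene. No set test was made. Confidence intervals reflect the spread between these libraries, estimated for each gene with information drawn from the other genes.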

Additional observations from a re-analysis of the deposited data

Results flagged for a closer look

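Groups of 4 libraries were checked for a library far from the others by Dixon's test for 44 genes and marker sums in both groups, 88 checks in all, of which 7 were past it. Chance flags about 1 in 20 groups. Among the 9 genes it was Rb1 in SPF 3, at 56.1 CPM against 61.7 to 62.6 CPM in the other SPF libraries. Ccna2 was at 82.0 CPM in SPF 1, below the other SPF libraries. Eda2r was at 12.5 CPM in germ-free 4 and Trp53inp1 at 44.2 CPM in germ-free 3, above the other germ-free libraries, and Slc6a6 was at 1508 CPM in germ-free 2. Basal keratinocyte markers summed to 29721 CPM in SPF 4, the lowest SPF library, and fibroblast markers to 591 CPM in germ-free 3, the highest germ-free library.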

How the results depend on the processing

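Ccnd1 and Ccnd2 were called in all 16 other fits, with log2 fold changes of 0.99 to 1.197 and 1.36 to 1.58, and the other 7 genes were called in none. The sign changed where the estimate was near 0: Cdk4 ranged from -0.0418 to 0.102 with 1 library left out (-0.0418 without germ-free 3, -0.0190 without SPF 3), and Cdk6 from -0.0595 to 0.137 (-0.0595 without germ-free 2), with -0.0190 by limma voom and -0.0212 with the block by title number. Cdkn1c was 0.10 with that block, on an SE of 0.36. All genes called numbered 631 (279 higher, 352 lower), and 1253 (595 and 658) by the DESeq2 Wald test, 975 (430 and 545) by limma voom with quality weights, and 290 to 659 (132 to 259 and 155 to 400) with 1 library left out. Replicate numbers were not used as pairs in the main fit, and whether they pair the libraries was not settled. Deviations of same-numbered libraries correlated at -0.11 to 0.23 for 3 title numbers. For 4 source name numbers they correlated at 0.09 to 0.27, and 2 of the 4 pairs correlated best with each other. The highest correlation, 0.34, was between germ-free 3 and SPF 5, which share neither number. With the replicate block by title number 333 genes were called (172 higher, 161 lower), and with the block by source name number 886 (440 higher, 446 lower). In the lists, the title block gave 1 fall among G1/S partners (Cks2, while Cdkn2d and Cks1b lost their calls), 1 rise and 0 falls among E2F targets, 1 rise among p53 targets and 2 falls among mitotic genes, and the source name block 1 fall among E2F targets and 1 among p53 targets. DESeq2 and limma voom each gave 5 falls among E2F targets. With 1 library left out, rises and falls were 0 to 1 and 0 to 2 for G1/S partners and 0 to 2 and 0 to 4 for E2F targets, and falls 3 to 13 for mitotic genes. The cause was not tested. By CPM without length, Ccnd2 took 76.9% and 69.6% of the D cyclins in germ-free and SPF libraries (63.9% and 55.8% per length), Cdk6 51.9% and 51.5% of the kinases (20.4% and 19.8%) and Cdkn1b 64.5% and 64.3% of the inhibitors (56.8% and 56.2%), since length weights the genes. Among the 15 named genes of the pathway lists with a call, 72 of 240 refits lost it. Among the 7 without a call 5 of 112 refits gained it, and 0 reversed. The nearest profiles are not in these counts. Cdkn1c had the fewest counts of the 9 genes, with an SE of 0.44, and of 0.30 without SPF 1.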

Other observations

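Germ-free libraries 1 and 2 differed from germ-free 3 and 4 in several of the 9 genes, a pattern chosen after the values were seen and not tested. Ccnd1 (213 and 193 CPM), Cdkn1a (38.6 and 39.4 CPM) and Cdkn1c (4.48 and 4.28 CPM) were lower in germ-free 1 and 2 than in germ-free 3 and 4, which had 293 and 292 CPM of Ccnd1, 55.5 and 59.9 CPM of Cdkn1a and 7.39 and 9.63 CPM of Cdkn1c. Cdk6 and Cdkn1b were higher in germ-free 1 and 2. Mki67, which marks cycling cells, was at 1051 and 895 CPM in germ-free 1 and 2, at 548 and 559 CPM in germ-free 3 and 4, and at 1524 to 1815 CPM in SPF libraries. Ccnd2 did not follow this split, with its lowest germ-free values in libraries 2 and 3.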
